A study of Mus musculus with 4 samples.

Results

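The genes described here handle calcium at the sarcoplasmic reticulum of muscle: Pln, Sln, Atp2a2, Ryr2, Casq1, Casq2, Slc8a1, Asph, Trdn and Jph2. Their products carry calcium across its membrane or the cell membrane, restrain its pump, hold calcium in it or build the sites of release. The genes were found as every probe set of an expression array whose annotation gives 1 of these symbols and no other. That was 28 of 22626 non-control probe sets, for all 10 genes among 12393 with a probe set of 1 symbol. The AV junction was tissue of the atrioventricular (AV) junction microdissected from wild-type mouse hearts at embryonic days 10.5 to 11.0, where the cushions of the valves form, and the ventricular region was dissected from wild-type hearts of the same stage; no strain is stated. Each region was pooled from about 80 hearts, and 230 ng of total RNA for the AV junction and 250 ng for the ventricular region were amplified before labelling. Each was read on 2 Affymetrix MOE430A arrays, replicates 1a and 1b. The shared number was taken to mean 1 pool per region, which the labels do not state, so p-values cover the spread between arrays and not between hearts.

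In heart muscle the contraction starts when the ryanodine receptor of the sarcoplasmic reticulum releases stored calcium, and ends when a calcium pump returns it to the store and an exchanger of the cell membrane carries the rest out. Small membrane peptides hold the pump back, and a complex of calsequestrin, triadin and junctin buffers calcium beside the release channel. In the embryonic heart the AV canal conducts slowly and contracts slowly, while the chamber walls take on the faster working muscle programme.

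Values are array intensities scaled to a 2% trimmed mean of 500, so they have no absolute unit, and levels of different probe sets are not comparable. Log2 folds set the AV junction over the ventricular region after 50 was added to each intensity, with p-values from limma adjusted (Benjamini-Hochberg) across all 13403 probe sets with a mean of at least 100. The brightest control probe set for Bacillus subtilis served as background and read 52.6 to 58.6 on the AV arrays and 97.9 to 104 on the ventricular arrays. Actin probe sets at the 3' end were 16.6 to 23.4 times as bright as those at the 5' end. Across probe sets, which are not independent, Pearson's r of log2 intensity was 0.98 for the pair of AV arrays, 0.979 for the ventricular pair and 0.947 to 0.95 for pairs of unlike region.

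Pln, which restrains the pump, was the member that fell far in the AV junction, and it did so on each of its 3 probe sets. Trdn, which anchors calsequestrin to the release channel, fell on 2 of its 4 tested probe sets, and Asph, whose locus also encodes junctin, on 1 of 5. Atp2a2, the pump itself, was higher on 2 of 4. The release channel Ryr2, both calsequestrins, the exchanger Slc8a1 and Jph2 passed on none of their tested probe sets. Of the 28 probe sets 22 were bright enough to test, and 8 of them (36.4%) passed an adjusted p of 0.05, against 13.8% of all probe sets tested. Those lower in the AV junction were 6 of the 22, against a background of 6.58%. Those higher were 2 of the 22, both of Atp2a2, against 7.24%, a share near the background. Probe sets of 1 gene share their transcript, and by brightest probe set 2 of the 9 genes tested passed, Pln and Trdn, both lower, against 15.0% of all genes tested. The median log2 fold of the 22 was -0.16, beside -0.07 over all probe sets. The arrays of the regions did not overlap for 15 of the 22 (68.2%), against 61.2% of all probe sets tested, a share near the background.

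**Figure D1:**
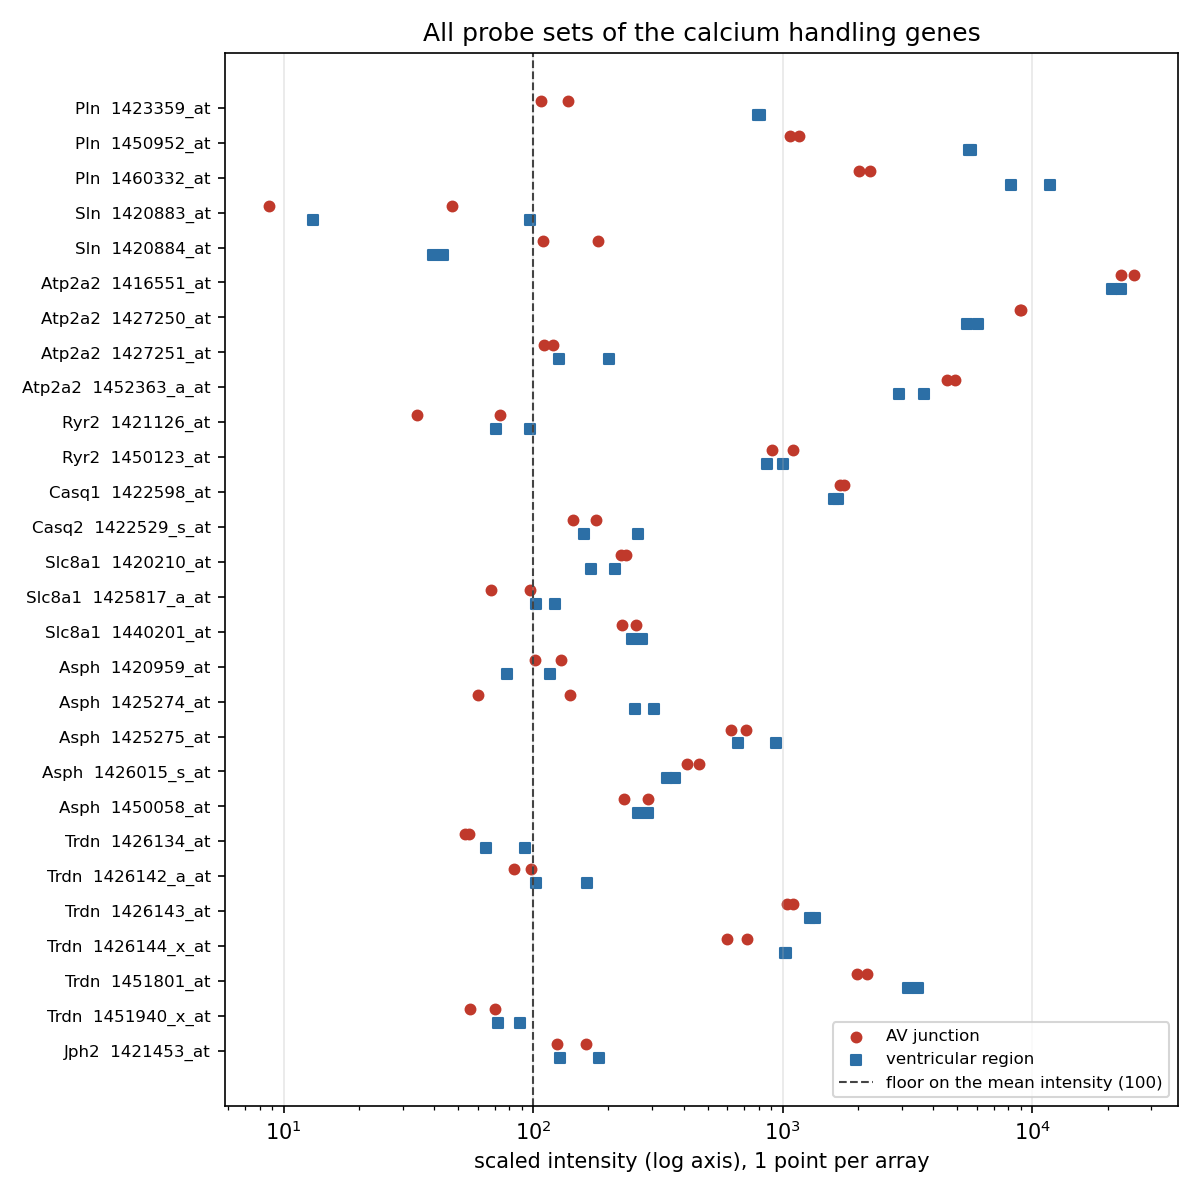
Scaled intensity (log axis) of all 28 probe sets of the 10 genes, 1 point per array, with circles for the AV junction, squares for the ventricular region and a dashed line at the floor of 100 on the mean. The circles of Pln lie left of its squares on all 3 probe sets, and those of Atp2a2 1427250_at and 1452363_a_at lie right of theirs.

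Pln encodes phospholamban, a small membrane protein that lowers the calcium affinity of the pump until it is phosphorylated. Its brightest probe set, 1460332_at, read 2226 and 2020 on the AV arrays, against 11742 and 8202 on the ventricular arrays. The higher AV array lay far below the lower ventricular one, although the ventricular arrays differed from each other. The fitted log2 fold was -2.18 with an SE of 0.16, so the ventricular region was 4.54-fold brighter (limma, adjusted p = 0.000489). The second probe set, 1450952_at, read 1067 and 1158 on the AV arrays, against 5565 and 5676 on the ventricular arrays. Here the arrays of each region were close to each other, and the log2 fold was -2.29 with an SE of 0.10 (limma, adjusted p = 5.52e-05). The dimmest, 1423359_at, read 138 and 108 on the AV arrays, against 806 and 793 on the ventricular arrays. Its AV values stood above the background control on both arrays, and its log2 fold was -2.30 with an SE of 0.17 (limma, adjusted p = 0.000412). In order of log2 fold from the lowest of the 13403 probe sets, the 3 stood at places 7, 8 and 12. All 3 are annotated with 1 source sequence, so they are readings of the same gene and not independent samples of it. Their call held in every alternative run, with log2 folds between -2.70 and -1.63 and adjusted p-values of at most 0.0158.

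Some general markers of heart muscle were lower in the AV junction too. Of 11 markers of heart muscle in all chambers 6 were lower, 0 higher and 5 did not pass, with a median log2 fold of -0.44. Their summed intensity was 94060 to 95481 on the AV arrays, against 123017 to 132246 on the ventricular arrays. Myh7 was the largest part of that difference, at 18768 and 19092 on the AV arrays, against 34219 and 40521 on the ventricular arrays. Myh6 went the other way without passing, at 25829 and 25119 on the AV arrays, against 21560 and 23296. The sums therefore say little of the other markers. In pooled tissue fewer muscle cells and less RNA per cell cannot be told apart. Within an array Pln was therefore set against the middle one of the 11 markers, which was Tnnc1, the calcium-binding troponin subunit, on all 4 arrays. Tnnc1 was the middle one by brightness and not by change, with a log2 fold of -0.955, beside the median of -0.44. Log2 Pln minus log2 of that marker was -0.50 and -0.88 on the AV arrays, against 0.90 and 0.21 on the ventricular arrays. The regions did not overlap and differed by -1.24, with an exact two-sided permutation p of 0.333, the smallest that 2 against 2 arrays allow. When each marker was first centred on its own mean, which was added with the data known, the difference was -1.69 (exact permutation p = 0.333). Of 7 genes of ventricular chamber muscle 5 fell in the AV junction and 0 rose, and their sums were 24109 to 25324 on the AV arrays, against 66767 to 74141 on the ventricular arrays. Their part in the Pln difference was not tested.

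The stretches of 250 bases before the annotated start of the gene are shown for Pln, which fell, and for Casq2 and Slc8a1, which did not pass and whose windows also hold a short motif of a heart transcription factor. They come from RefSeq on build GRCm38.p6, where 6 of the 10 genes matched, and run 5' to 3' on the gene's strand. Capitals mark the GATA motif in the form AGATAA, or the MEF2 motif, on either strand. Other forms of the GATA motif were not sought and are left unmarked. The Pln window is chr10:53337436-53337685 on the plus strand, that of Casq2 is chr3:102086165-102086414 on the plus strand and that of Slc8a1 is chr17:81738388-81738637 on the minus strand.
Pln: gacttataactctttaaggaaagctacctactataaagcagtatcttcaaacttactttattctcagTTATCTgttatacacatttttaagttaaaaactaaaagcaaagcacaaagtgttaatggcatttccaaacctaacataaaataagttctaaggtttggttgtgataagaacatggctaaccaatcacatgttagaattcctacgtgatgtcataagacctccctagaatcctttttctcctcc
Casq2: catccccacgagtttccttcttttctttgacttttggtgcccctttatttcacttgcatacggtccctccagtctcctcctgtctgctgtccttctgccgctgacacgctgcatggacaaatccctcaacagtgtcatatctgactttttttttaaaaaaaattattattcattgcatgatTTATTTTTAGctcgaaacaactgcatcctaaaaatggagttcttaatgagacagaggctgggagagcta
Slc8a1: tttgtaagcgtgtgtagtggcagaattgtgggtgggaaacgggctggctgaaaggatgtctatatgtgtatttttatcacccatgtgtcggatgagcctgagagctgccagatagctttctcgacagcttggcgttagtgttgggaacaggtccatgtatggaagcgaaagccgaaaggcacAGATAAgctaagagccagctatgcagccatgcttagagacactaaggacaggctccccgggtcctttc
The Pln window holds 1 AGATAA motif that begins 183 bases before the start and no MEF2 motif, and Slc8a1 holds 1 AGATAA motif 68 bases before. Casq2 holds 1 MEF2 motif 69 bases before the start and no AGATAA motif. Over 32851 windows of this length AGATAA or its complement occurs in 9.99% and the MEF2 motif in 2.92%. The T-box core AGGTGT, sought on both strands and found in 11.8% of windows, is in none of the 7 windows of the 6 members. Also in none are the NKX motif AAGTGG, found in 14.1% of windows, and the CArG motif, found in 1.47%. The E-box CANNTG, found in 66.2% and not marked above, is in all 7. The windows of Jph2 overlap each other. A match of letters says nothing of binding, and these arrays did not measure it.

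Sln encodes sarcolipin, the related peptide that restrains the pump and is known in adult heart mainly from the atria. Both of its probe sets fell below the floor and were not tested. Probe set 1420884_at read 110 and 181 on the AV arrays, against 39.6 and 43.3 on the ventricular arrays. The AV arrays stood above the background control and the ventricular arrays below it. On the mean of its 2 arrays the AV junction was at least 1.39-fold above the ventricular control. That bound does not hold for AV array 1a alone, whose 110 was only just above the ventricular controls of 97.9 and 104. With no floor limma gave a log2 fold of 1.07 and the probe set did not pass (adjusted p = 0.113). The other, 1420883_at, was below the control on all 4 arrays. Of 6 atrial muscle genes 5 rose in the AV junction and 0 fell. Whether these bear on the Sln readings was not tested.

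Atp2a2 encodes SERCA2, the pump that refills the store. Probe set 1427250_at read 8888 and 8986 on the AV arrays, against 6033 and 5460 on the ventricular arrays. The regions did not overlap, and the AV junction was 1.55-fold brighter, its log2 fold being 0.63 (SE 0.09, limma, adjusted p = 0.00617; 0.0606 with eBayes without trend). Probe set 1452363_a_at read 4533 and 4876 on the AV arrays, against 2913 and 3667 on the ventricular arrays, its log2 fold being 0.52 (SE 0.12, limma, adjusted p = 0.0352). It did not pass when either AV array, or ventricular array 1a, was left out, with adjusted p-values up to 0.152, nor with no floor (adjusted p = 0.0857) or eBayes without trend (0.118). The brightest probe set, 1416551_at, read 22705 and 25583 on the AV arrays, against 20780 and 22697 on the ventricular arrays. Its lower AV array lay only just above its higher ventricular one, and it did not pass (log2 fold 0.15, 95% interval -0.08 to 0.38, adjusted p = 0.336), but it did with quantile normalisation (log2 fold 0.38, adjusted p = 0.00566). The dim probe set 1427251_at gave -0.35 (95% interval -0.95 to 0.25) and did not pass. None of the 4 Atp2a2 probe sets passed as lower in the AV junction. Of the 11 heart muscle markers 6 were lower, 0 higher and 5 did not pass. What part the amount of muscle had in the Atp2a2 readings was not tested.

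Relative to its pump, Pln was lower in the AV junction. Log2 Pln minus log2 Atp2a2, each by its brightest probe set, was -3.35 and -3.66 on the AV arrays, against -0.82 and -1.47 on the ventricular arrays. These numbers depend on how each probe set responds, and what can be read is their difference between regions, -2.36, a 5.14-fold lower ratio in the AV junction. The arrays did not overlap, and the exact two-sided permutation p was 0.333, or 0.583 adjusted over the 7 such differences computed. The difference was -2.04 without ventricular array 1a and -2.68 without ventricular array 1b. Sln minus Atp2a2 differed the other way by 1.62, but rests on ventricular Sln values below background and came to 0.92 with 50 and 0.36 with 200 added before the log. Slc8a1 minus Atp2a2 differed by -0.26, and Ryr2 minus Atp2a2 by -0.05 with overlapping arrays.

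**Figure D2:**
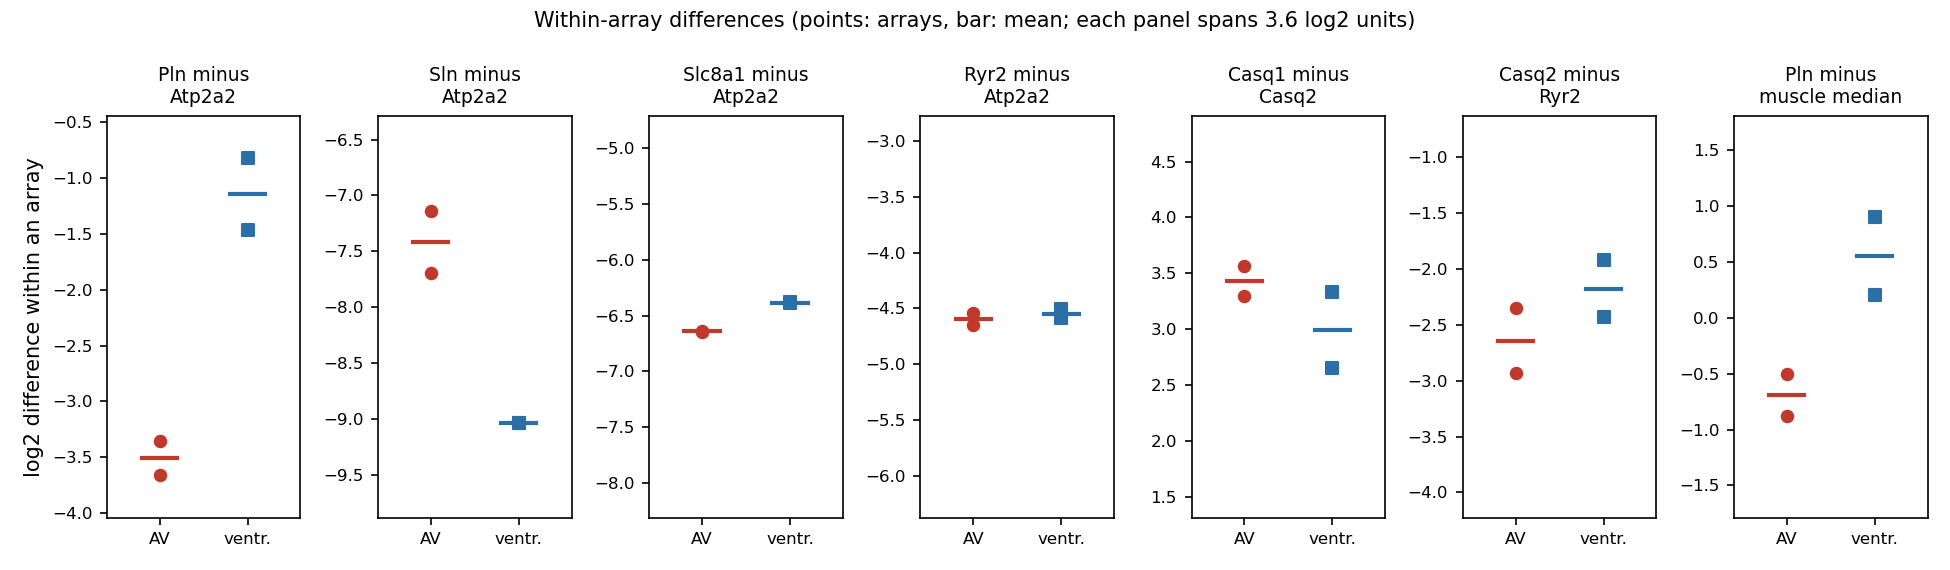
Log2 difference of 2 genes within an array, each by its brightest probe set, for the AV junction (circles, left) and the ventricular region (squares, right), with a bar at the mean of the 2 arrays and the same span in every panel. Pln minus Atp2a2 averages -3.51 on the AV arrays and -1.15 on the ventricular arrays, while Ryr2 minus Atp2a2 averages -4.59 on the AV arrays and -4.55 on the ventricular arrays.

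Ryr2, the channel that releases calcium from the store, read 906 and 1100 on the AV arrays, against 863 and 999 on the ventricular arrays, on probe set 1450123_at. The regions overlapped and the log2 fold was 0.10 (95% interval -0.23 to 0.43, adjusted p = 0.661). Its second probe set averaged below the floor. Casq1, the calsequestrin best known from skeletal muscle, read 1752 and 1700 on the AV arrays, against 1607 and 1661 on the ventricular arrays. These values differ little in either direction, with a log2 fold of 0.08 (95% interval -0.16 to 0.31, adjusted p = 0.63). Of 8 skeletal muscle markers Myog, Myf5 and Pax7 were at or below the background control on all 4 arrays, Pax3 and Tnnt3 were above it on 2, and Myod1, Ckm and Acta1 on all 4. Of the 3 bright enough to test 0 were higher and 1, Acta1, was lower. The 8 summed to 817 and 943 on the AV arrays, against 1328 and 1238 on the ventricular arrays. Acta1 was the largest part of each sum, at 405 and 348 on the AV arrays, against 766 and 781 on the ventricular arrays. Whether skeletal or heart muscle gave the Acta1 reading was not tested. Casq2, the calsequestrin of heart muscle, read 178 and 144 on the AV arrays, against 160 and 264 on the ventricular arrays. One ventricular array stood apart, the regions overlapped and the gene did not pass (log2 fold -0.29, 95% interval -0.88 to 0.30, adjusted p = 0.47). Within an array Casq1 minus Casq2 differed by 0.44 and Casq2 minus Ryr2 by -0.46, both with overlapping arrays (exact two-sided permutation p = 0.667 each).

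Trdn encodes triadin, which holds calsequestrin at the release channel, and its 6 probe sets come from 3 annotated source sequences. The brightest, 1451801_at, read 2182 and 1991 on the AV arrays, against 3469 and 3167 on the ventricular arrays. The regions did not overlap, and the log2 fold was -0.66 with an SE of 0.10, 1.58-fold brighter in the ventricular region (limma, adjusted p = 0.00852). Its adjusted p was 0.0568 without ventricular array 1a and 0.0606 with eBayes without trend. Probe set 1426144_x_at, whose suffix marks probes that may also match other transcripts, read 596 and 718 on the AV arrays, against 1032 and 1020 on the ventricular arrays. Its log2 fold was -0.61 (limma, adjusted p = 0.0244), and it did not pass when AV array 1a or either ventricular array was left out, with adjusted p-values up to 0.103, nor with no floor (adjusted p = 0.0525) or eBayes without trend (0.0754). From the same source sequence, 1426143_at read 1043 and 1099 on the AV arrays, against 1289 and 1346 on the ventricular arrays. It was lower on both AV arrays but did not pass (log2 fold -0.29, 95% interval -0.54 to -0.03, adjusted p = 0.12), nor did the dim 1426142_a_at (log2 fold -0.36, adjusted p = 0.403). Both probe sets of the third source sequence averaged below the floor, at 66.5 and 71.6 over the 4 arrays, and were below the background control on both ventricular arrays.

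Asph gives rise to junctin, a partner of triadin, and to an enzyme that hydroxylates aspartate in secreted and membrane proteins, and the array annotation does not say which product a probe set reads. Its 5 probe sets went different ways. Probe set 1425274_at read 140 and 60.3 on the AV arrays, against 256 and 304 on the ventricular arrays. The AV arrays differed widely but lay below both ventricular ones (log2 fold -1.18 with an SE of 0.29, limma, adjusted p = 0.0373). It did not pass when AV array 1b or either ventricular array was left out, with adjusted p-values up to 0.154, nor with quantile normalisation (adjusted p = 0.0705), no floor (0.11) or eBayes without trend (0.075). From the same source sequence, the brighter 1425275_at read 715 and 621 on the AV arrays, against 943 and 663 on the ventricular arrays. There the regions overlapped (log2 fold -0.23, 95% interval -0.65 to 0.19, adjusted p = 0.406). The remaining 3 did not pass, with log2 folds of 0.26, 0.17 and -0.08 and mean intensities of 398, 106 and 268.

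Slc8a1, the sodium-calcium exchanger of the cell membrane, read 226 and 258 on the AV arrays, against 248 and 273 on the ventricular arrays, on probe set 1440201_at. The regions overlapped (log2 fold -0.09, 95% interval -0.50 to 0.32, adjusted p = 0.76). A second, 1420210_at, gave 0.22 (95% interval -0.24 to 0.67, adjusted p = 0.479), and the last averaged below the floor at 97.4. Jph2, junctophilin 2, ties the reticulum to the cell membrane. It read 124 and 163 on the AV arrays, against 184 and 128 on the ventricular arrays, with overlap (log2 fold -0.08, 95% interval -0.66 to 0.49, adjusted p = 0.842). The intervals of Jph2, Casq2 and Atp2a2 1427251_at leave room for a fall of the size seen on the brightest probe set of Trdn. Those of Slc8a1 1420210_at and Asph 1420959_at leave room for a rise of that size but not for such a fall.

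**Figure D3:**
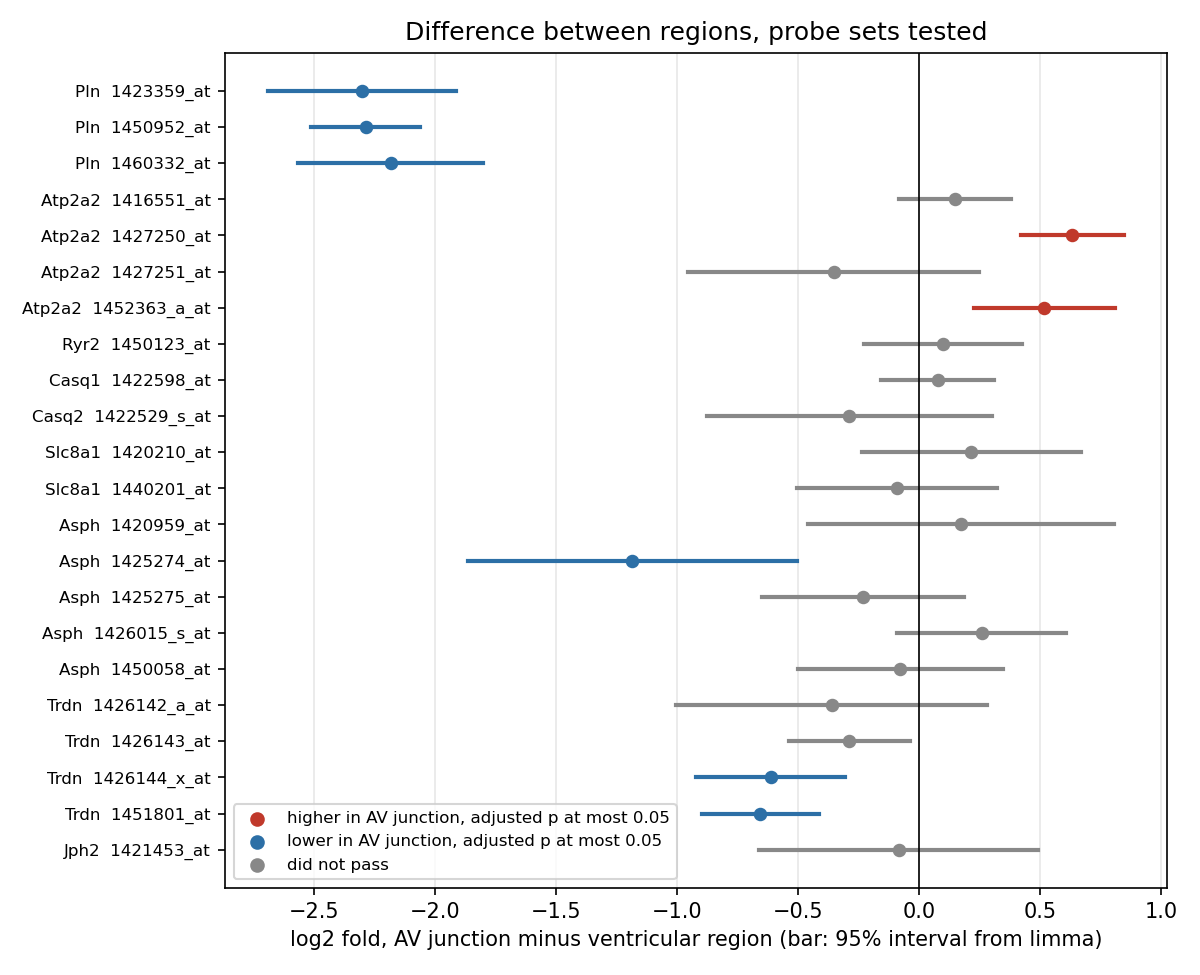
Log2 fold, AV junction minus ventricular region, of the 22 probe sets tested, with 95% intervals from limma. Blue marks the 6 lower and red the 2 higher at an adjusted p of at most 0.05, and grey the 14 that did not pass. The 3 probe sets of Pln stand near -2.2, apart from all others.

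Other calcium genes mostly did not pass. Of 52 genes on the list 40 were named on the array and 28 were bright enough to test. By brightest probe set 2 of the 28 were higher in the AV junction, against a background of 8.47%, and 2 lower, against 6.54%, while 24 did not pass. In either direction 14.3% passed, against 15.0% of all genes tested, a share near the background. The median log2 fold was -0.17, beside -0.06 over all genes. Ryr3, a ryanodine receptor known from smooth muscle, brain and embryonic muscle, read 1438 and 876 on the AV arrays, against 209.9 and 210.3 on the ventricular arrays. The AV arrays differed from each other but lay far above the ventricular ones, at a log2 fold of 2.17 (SE 0.22, limma, adjusted p = 0.0015). Its call held in all 13 fits with another setting or without 1 array, at log2 folds between 1.70 and 2.52. Ryr1, the skeletal muscle receptor, was at or below the background control on all 4 arrays.

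Of 5 smooth muscle markers 3 were bright enough to test, of which 0 rose and 1 fell in the AV junction, and Myh11 was at or below background on all 4 arrays. Their sums were 14121 and 15479 on the AV arrays, against 16858 and 17731 on the ventricular arrays. Most of each sum was Acta2, which did not pass. It read 13350 and 14418 on the AV arrays, against 15449 and 16261 on the ventricular arrays, so the sums say little of the other markers. Which cells of these pools gave the readings of the smooth muscle markers, heart muscle included, was not tested. Cacna1d, the L-type calcium channel of pacemaker cells, read 1037 and 866 on the AV arrays, against 355 and 362 on the ventricular arrays (log2 fold 1.29, adjusted p = 0.00203). Hrc, a calcium-binding protein of the reticulum that binds triadin, read 1187 and 1281 on the AV arrays, against 1767 and 1874 on the ventricular arrays. It was lower without overlap (log2 fold -0.54 with an SE of 0.11, limma, adjusted p = 0.0173), and did not pass when AV array 1a or either ventricular array was left out (adjusted p up to 0.0939) or with eBayes without trend (0.0758). Tmem38b, a potassium channel that balances charge during calcium release, read 91.8 and 76.1 on the AV arrays, against 235 and 173 on the ventricular arrays (log2 fold -0.92, adjusted p = 0.0471). It was lost when any 1 array was left out and under 5 of the other settings, and its second probe set did not pass (log2 fold -0.62, adjusted p = 0.174).

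**Figure D4:**
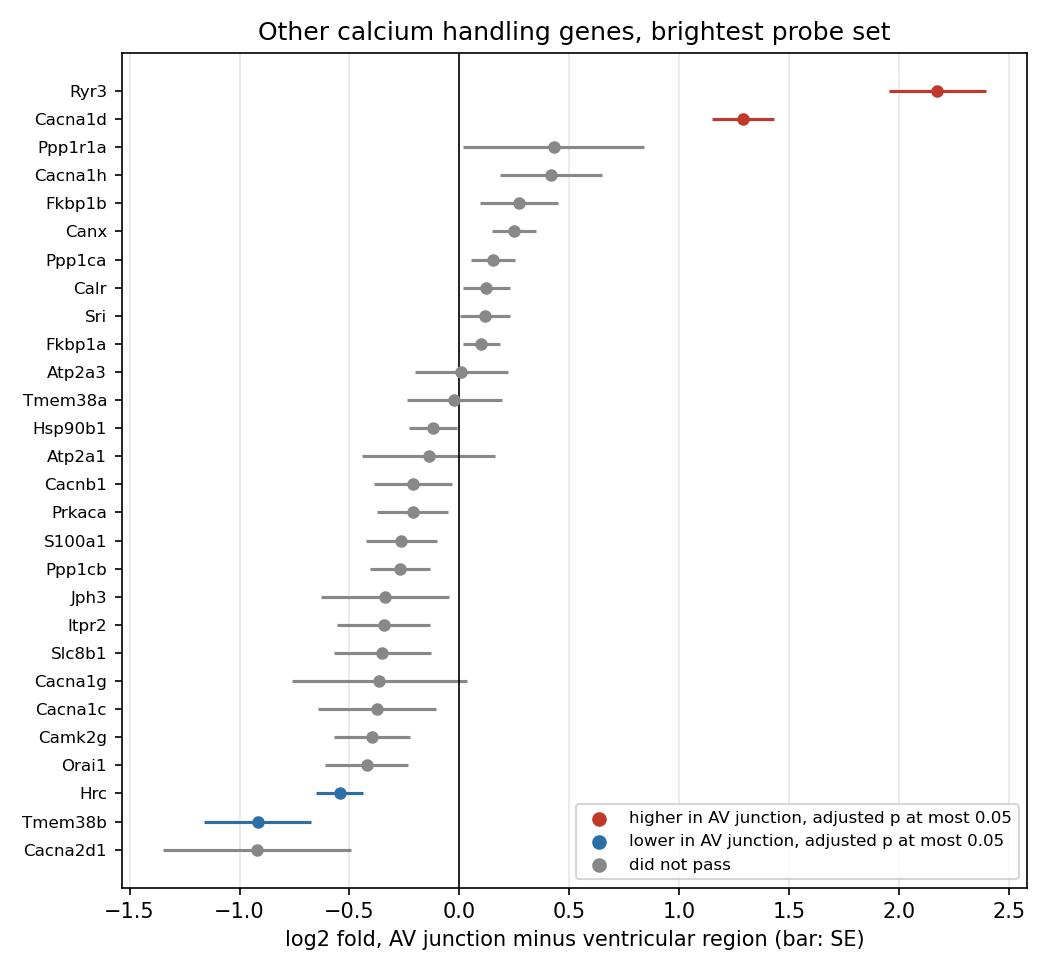
Log2 fold, AV junction minus ventricular region, of the 28 other calcium handling genes tested, each by its brightest probe set, with bars of 1 SE. Ryr3 at 2.17 and Cacna1d at 1.29 stand right of the rest, and Hrc and Tmem38b are the blue points left of 0.

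Transcripts of other cell types also differed between these tissues. Markers of AV canal muscle were higher in 4 of 4 tested and of cushion mesenchyme in 4 of 6, with 0 lower in either list. Of liver and yolk sac genes 3 of 4 were higher, with sums of 6703 to 7122 on the AV arrays, against 448 to 449 on the ventricular arrays. Erythroid genes were lower in 5 of 6, with sums of 39007 to 40371 on the AV arrays, against 69989 to 77536 on the ventricular arrays. Of endothelial and endocardial genes 2 of 5 were higher and 0 lower, and of epicardial genes 0 of 4 passed. What part these cells had in the differences of the calcium genes was not tested.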

How the data were processed

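Gene expression was measured on 4 Affymetrix MOE430A arrays, 2 per region. The deposited values are 1 linear intensity per probe set and array, which the authors computed in MAS5 (named in the submitters' processing notes, per the labels, without its version). The authors' other records name the chip lot and the fluidics station and module (other information, deposited with each array): all 4 arrays shared 1 lot and 1 station and each ran on a module of its own, so lot and station did not vary and no module held 2 arrays.

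The 22690 probe sets include 64 controls. Of the others 20380 have 1 gene symbol, 691 several and 1555 none, from the platform annotation. Updating symbols through Entrez ids changed 0. Arrays were scaled to a 2% trimmed mean of 500, and probe sets with a mean of at least 100 were tested. The log2 of intensity plus 50 was fitted with limma 3.58.1 in R 4.3.3 (lmFit, eBayes with trend, region as the only term, 7.43 total degrees of freedom). The fit was also run on simulated arrays with independent noise drawn from its own SEs. Such arrays cannot show how well the p-values hold for these pools. The number of arrays limits the precision. A gene in a list was represented by its brightest probe set. Background was the brightest of 27 Bacillus subtilis control probe sets on each array. An "at least" fold sets the mean log2 of the brighter region against that control. No set test was run. Positions come with the RefSeq promoter table, since the array files name no build.

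The members, gene lists, marker lists and tests were chosen with earlier results of these data known. All members were named with every probe set. Of the other calcium genes those that passed were named, and Ryr1 was added after its values were seen. Myog, Myf5, Pax7, Pax3, Tnnt3, Myod1, Ckm, Acta1, Myh11, Acta2, Tnnc1, Myh7 and Myh6 were singled out from the marker lists after theirs were seen. Same-letter arrays of the regions did not deviate together (r = 0.0564 across probe sets). Figures used matplotlib 3.10.9 in Python 3.11.15.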

Additional observations from a re-analysis of the deposited data

How the results depend on the processing

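Alternatives were quantile normalisation, median scaling, the values as deposited, a pseudocount of 1 or 200, no floor or a floor of 300, eBayes without trend, the replicate letter as a block, and each array left out in turn. Of the 22 member probe sets 9 kept their direction and side of the threshold in every setting that tested them (11 of the 13 for Atp2a2 1427251_at, Slc8a1 1420210_at and Trdn 1426142_a_at, which the values as deposited and the floor of 300 left untested), and only the 3 of Pln were called in all. Member probe sets that passed numbered 8 with the main setting, 5 with no floor (1 higher) and 3 with eBayes without trend (3 lower, 0 higher). With 1 array left out they numbered 4 to 6 (3 to 5 lower, 1 to 2 higher), with the 4 lowest without ventricular array 1a, where 3 were lower and 1 higher. With the replicate block they numbered 8, 6 lower and 2 higher, and the other calcium genes 4, 2 lower and 2 higher. The block thus changed none of these counts; the letters are shared between regions only as letters. The other calcium genes that passed numbered 4, against 2 with eBayes without trend, where 0 were lower, and 2 to 4 with 1 array left out, where 0 to 2 were lower and 2 higher. They numbered 2, with 0 lower, when AV array 1a or either ventricular array was left out. Just 1 was lower with quantile normalisation, median scaling, the values as deposited, a pseudocount of 1, no floor or a floor of 300. Over all probe sets 970 were higher and 882 lower, against 1344 and 1375 with the replicate block, 580 and 431 with no floor, 326 and 343 without trend, and 404 to 507 and 261 to 501 with 1 array left out. Of the 7 within-array differences 4 did not overlap, and no share over all pairs of probe sets was computed to set beside this. The pairs share genes and are not independent. With 1 array left out a region holds 1 array, which makes non-overlap easier, so no count of it is read there. Signs turned among uncalled probe sets near 0. With quantile normalisation Slc8a1 1440201_at gave 0.017, Asph 1450058_at 0.025 and Jph2 0.075. With 1 array left out Ryr2 1450123_at ranged from -0.034 to 0.232 and was below 0 when AV array 1b or ventricular 1a was left out, and Casq2 ranged from -0.576 to 0.003, above 0 without ventricular array 1b. Asph 1420959_at ranged from -0.013 to 0.36 and Asph 1425275_at from -0.47 to 0.007, both turned without ventricular array 1a, and Asph 1450058_at from -0.209 to 0.055, turned without AV array 1a. Jph2 ranged from -0.281 to 0.113, turned when either array 1a was left out, and Ryr2 minus Atp2a2 from -0.1 to 0.007, turned without AV array 1a. The cause of these shifts was not tested. Probe sets near background limit what can be said of Sln, Casq2 and Jph2.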
